A study of Xenopus laevis with 6 samples.

Results

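The posterior HoxA genes hoxa9, hoxa10, hoxa11 and hoxa13 were followed along the hind limb bud of the African clawed frog, Xenopus laevis, in the L and the S copy of each gene, which makes 8 gene IDs of 51061 in the count table. They were taken as every row with those names in the authors' deposited table of differentially expressed genes, which names 6943 gene IDs, and all 8 also passed the filter on low counts that left 27007 gene IDs to test. The allotetraploid genome of this frog keeps a longer (L) and a shorter (S) version of most chromosomes, so most genes can occur as an L and an S copy.

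RNA was sequenced from hind limb buds of untreated wild type tadpoles at stage 51, cut into distal, medial and proximal segments. Each segment was sampled in 2 pools of 30 hind limbs, and each pool gave 1 library made from 1 ug of total RNA. No genetic change or treatment separates the groups, so the comparison is between positions along the limb. The labels number the pools 1 and 2 and give each number a colour name that recurs in every segment (Black for pool 1, Red for pool 2). They do not say what the colour stands for, whether pools of a number came from the same limbs or whether the 2 pools of a segment were collected apart, so p-values measure the spread between these pools, which may be partly technical.

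Hox genes encode homeodomain transcription factors that lie in clusters, and along a cluster the order of the genes mirrors the order of the body or limb regions in which they are used. In mouse and chick limbs, Hoxa9 and Hoxa10 act mainly in the upper limb, Hoxa11 in the lower leg or forearm, and Hoxa13 in the hand or foot, where Hoxa13 protein also holds down Hoxa11. The distal border of Hoxa11 and the proximal border of Hoxa13 are the classic marks of where the future foot begins.

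In these segments hoxa13 was a distal gene, hoxa11 was high in both the distal and the medial segment, and hoxa9 and hoxa10 showed shallower slopes. Both hoxa13 copies were more than an order of magnitude higher in the distal segment than in either other segment, and were not called between the medial and the proximal one. Both hoxa11 copies were higher in the medial than in the proximal segment and were not called between the distal and the medial one. The calls of the 2 genes thus fell at different boundaries of the same 3 segments. A direct comparison of the 2 steps, given below, called both hoxa11 copies and hoxa13.L but not hoxa13.S. The hoxa13.L call there depended on single proximal libraries.

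All 8 genes lie on the minus strand in 2 exon blocks each, by the coordinates in the count table, whose genome build is not given in the sources used here. On chromosome 6L, hoxa9.L (gene16648) spans 39644643 to 39648042 and hoxa10.L (gene44468) spans 39653692 to 39658420. They are followed by hoxa11.L (gene13476) at 39663917 to 39667366 and hoxa13.L (gene16317) at 39676799 to 39679727. On chromosome 6S, hoxa9.S (gene2368) spans 33750077 to 33752730 and hoxa10.S (gene47838) spans 33757748 to 33761250. There hoxa11.S (gene19007) lies at 33768722 to 33773989 and hoxa13.S (gene37890) at 33783953 to 33786166. The gene order is the same on both chromosomes, and no other gene ID of the table overlaps any of the 8 spans. Counting ignored strand and dropped fragments that mapped to several places, so stretches that are identical between an L and an S copy add to neither. The S model of hoxa13 is short, 888 bp against 2241 bp for hoxa13.L, and that of hoxa11.S is long, 4369 bp against 2484 bp for hoxa11.L.

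The libraries held 14111643 to 23079754 assigned fragments in distal pools, 28471843 to 28485939 in medial pools and 10815041 to 35479915 in proximal pools. Levels are counts per 1000000 scaled fragments (CPM), and 3 counts corresponded to 0.0840 to 0.283 CPM. Of the mesenchyme marker list, 10 copies summed to 1025 to 1041 CPM in distal, 1178 to 1280 CPM in medial and 1246 to 1262 CPM in proximal libraries. This sum hides opposite differences. Both copies of prrx1 and twist1 were lower in distal than in medial pools (prrx1.L 171 against 359 CPM on average). Both copies of prrx2, msx1 and msx2 were higher (msx2.S 132 against 37.4 CPM). The hind limb gene pitx1.L was at 196 to 363 CPM in all libraries. Blood markers, 19 copies for 12 of 14 genes listed, summed to 1200 to 2396 CPM in distal, 53368 to 61895 CPM in medial and 29401 to 40275 CPM in proximal libraries. Ectoderm markers, 9 copies for 5 of 9 genes, summed to 278 to 294 CPM in distal, 141 to 188 CPM in medial and 133 to 141 CPM in proximal libraries. Cartilage markers, 6 copies, stood at 545 to 552 CPM in distal, 910 to 1132 CPM in medial and 1136 to 1353 CPM in proximal libraries. Muscle markers, 11 copies, summed to 7.16 to 53.9 CPM over all libraries, endothelial markers, 5 copies, to 48.6 to 82.3 CPM, and nerve and glia markers, 3 copies, to 0.626 to 19.5 CPM. No marker copy was at 0 in every library. Markers could be matched only to names in the authors' table of called genes. Marker copies that the authors called in no comparison are thus missing. These sums may overstate differences between segments, or hide them where copies go opposite ways. Leaving 29 blood gene IDs out before scaling moved no member's log2 fold change by more than 0.0288. The part of the other cell types in the results below was not tested, and in bulk tissue fewer cells of a type and less RNA per cell cannot be told apart.

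**Figure D1:**
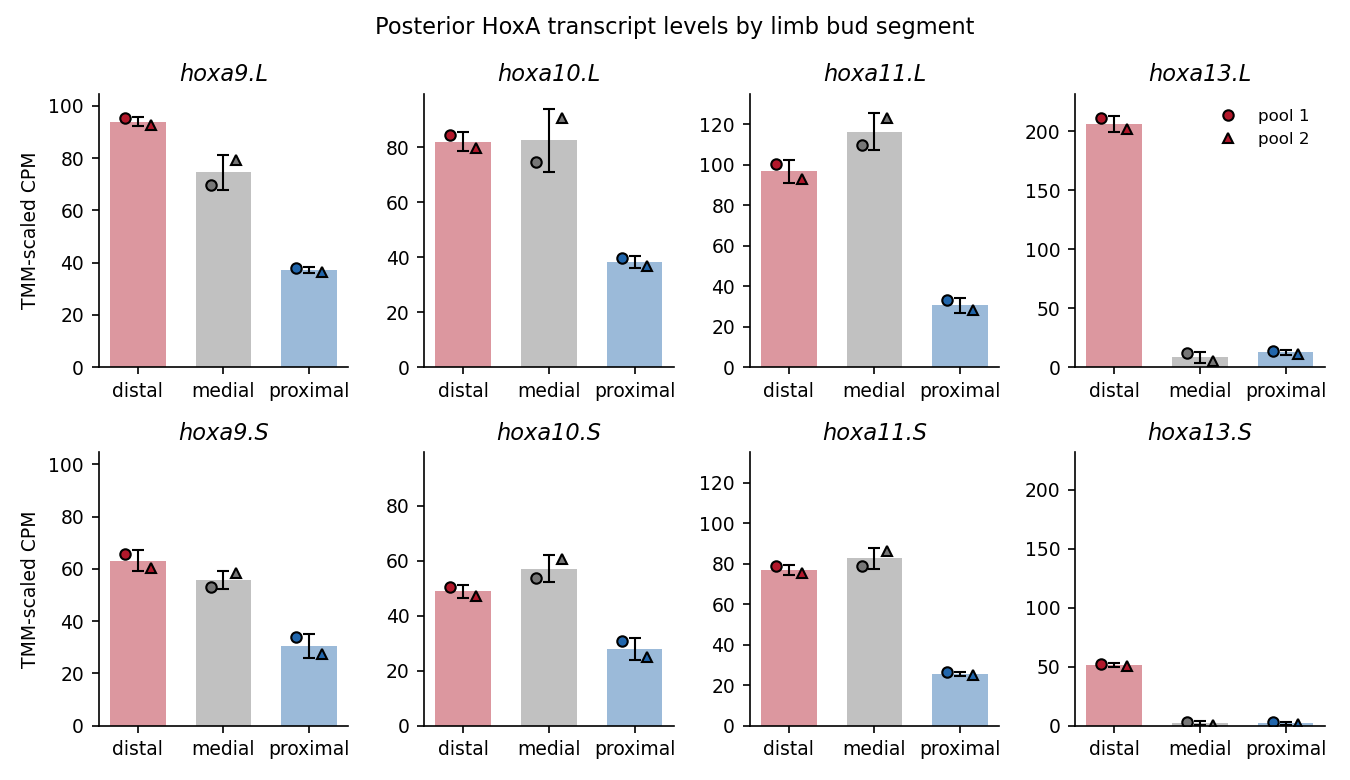
CPM of the 8 posterior HoxA copies in the distal, medial and proximal segments, with bars for the mean of 2 pools, error bars for the SD, circles for pool 1 and triangles for pool 2. The hoxa13 bars stand out in the distal segment, at 206 against 8.54 CPM in the medial segment for hoxa13.L, while the hoxa11 bars are high in the distal and medial segments, at 116 medial against 30.5 CPM proximal for hoxa11.L.

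hoxa13, whose mouse counterpart is needed for digits and wrist or ankle elements, was the most abundant posterior HoxA gene of the distal segment. hoxa13.L stood at 211 and 202 CPM in the 2 distal pools, against 11.8 and 5.23 CPM in the medial pools and 13.8 and 11.2 CPM in the proximal pools. hoxa13.S stood at 52.6 and 50.5 CPM in distal pools, against 3.15 and 0.871 CPM in medial pools and 2.83 and 1.26 CPM in proximal pools. For both copies the distal pools lay far above all other libraries, while medial and proximal pools overlapped. The raw counts behind the low values were 323 and 144 medial and 146 and 400 proximal fragments for hoxa13.L, and 86 and 24 medial and 30 and 45 proximal fragments for hoxa13.S, all above the floor of 3 counts.

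Between the distal and the medial segment, hoxa13.L was higher by 4.59 on the log2 scale (SE 0.39, 24.2-fold) and hoxa13.S by 4.68 (SE 0.51, 25.6-fold), with edgeR adjusted p = 0.00149 and 0.00440. Between the distal and the proximal segment the log2 fold changes were 4.08 (SE 0.38, 16.9-fold) and 4.92 (SE 0.56, 30.3-fold), with edgeR adjusted p = 0.00165 and 0.00379. Few genes changed more: 0.133% of genes tested had a higher distal over medial log2 fold change than hoxa13.L, and 0.118% a higher one than hoxa13.S. The size depends on single libraries. Without medial replicate 1 the distal over medial values became 5.30 for hoxa13.L and 5.88 for hoxa13.S, without medial replicate 2 they became 4.12 and 4.03, and without proximal replicate 2 the distal over proximal value of hoxa13.S became 4.18. All of these stayed past the threshold. Over all alternatives, the distal over proximal call of hoxa13.S came closest to being lost, and in the weakest of them it was only just kept.

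Between the medial and the proximal segment neither hoxa13 copy passed the test. hoxa13.L had a log2 fold change of -0.52 (95% interval -1.56 to 0.53, edgeR adjusted p = 0.646) and hoxa13.S one of 0.24 (95% interval -1.70 to 2.18, edgeR adjusted p = 0.933). These wide intervals do not show equal levels. Medial pool 1 held 2.27 times the hoxa13.L CPM and 3.62 times the hoxa13.S CPM of medial pool 2, and without medial replicate 1 hoxa13.L was lower in the medial than in the proximal segment (log2 fold change -1.22, edgeR adjusted p = 1.49e-04), in a fit that assumes the lone medial library to vary like the libraries of the other segments. Each result given here without a replicate rests on that assumption. hoxa13.S then had -0.94 (edgeR adjusted p = 0.256), and without proximal replicate 2 it had -0.48 (edgeR adjusted p = 0.889), so its direction between these segments is not settled.

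hoxa11, whose mouse counterpart shapes the lower leg and forearm together with Hoxd11, was high in the distal and medial segments and low in the proximal segment. hoxa11.L stood at 101 and 92.9 CPM in distal pools, 109.9 and 123 CPM in medial pools and 33.1 and 28.0 CPM in proximal pools. hoxa11.S stood at 78.7 and 75.4 CPM in distal, 79.1 and 86.4 CPM in medial and 26.4 and 25.0 CPM in proximal pools. Every distal and medial pool lay well above both proximal pools for each copy. The medial pools of hoxa11.L both lay above its distal pools, while for hoxa11.S the higher distal and the lower medial pool nearly coincided.

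Medial over proximal, hoxa11.L was higher by 1.94 on the log2 scale (SE 0.11, 3.85-fold) and hoxa11.S by 1.69 (SE 0.10, 3.23-fold), with edgeR adjusted p = 1.23e-06 and 1.21e-06. Distal over proximal, the values were 1.68 (SE 0.11) and 1.59 (SE 0.10), with edgeR adjusted p = 7.61e-07 and 3.98e-07. Distal over medial, hoxa11.L had -0.27 (95% interval -0.49 to -0.04, edgeR adjusted p = 0.0858) and hoxa11.S had -0.10 (95% interval -0.30 to 0.10, edgeR adjusted p = 0.447), and neither is called. Without medial replicate 1 the hoxa11.L value was -0.34 and passed the threshold (edgeR adjusted p = 0.0416). Whether hoxa11.L is called lower in the distal than in the medial segment thus depends on that library.

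hoxa9 and hoxa10, whose mouse counterparts work with other paralogues in the upper limb, were present in every segment, lowest in the proximal one. hoxa9.L stood at 95.2 and 92.7 CPM in distal, 69.7 and 79.3 CPM in medial and 37.9 and 36.4 CPM in proximal pools, with no overlap between segments. hoxa9.S stood at 65.9 and 60.2 CPM in distal, 53.2 and 58.2 CPM in medial and 33.9 and 27.4 CPM in proximal pools, with distal and medial pools close together but not overlapping. Both hoxa9 copies thus had their highest pools in the distal segment. hoxa10.L stood at 84.4 and 79.6 CPM in distal, 74.4 and 90.5 CPM in medial and 39.8 and 36.7 CPM in proximal pools. hoxa10.S stood at 50.6 and 47.1 CPM in distal, 53.5 and 60.5 CPM in medial and 30.7 and 25.1 CPM in proximal pools. For hoxa10.L the medial pools enclosed the distal ones, and for hoxa10.S both medial pools lay above both distal pools.

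The inner boundary carried most of the change of these 4 copies. Medial over proximal, the log2 fold change was 1.01 (SE 0.10) for hoxa9.L, 0.88 (SE 0.12) for hoxa9.S, 1.11 (SE 0.11) for hoxa10.L and 1.05 (SE 0.12) for hoxa10.S, with edgeR adjusted p of 5.68e-04 or lower for each. Distal over proximal, the values were 1.34 (SE 0.10), 1.06 (SE 0.12), 1.11 (SE 0.11) and 0.83 (SE 0.12) in the same order, with edgeR adjusted p of 2.52e-04 or lower. Distal over medial, only hoxa9.L was called, at 0.34 (SE 0.09, edgeR adjusted p = 0.0223). That call did not last without distal replicate 1 (0.32, edgeR adjusted p = 0.169), distal replicate 2 (0.34, edgeR adjusted p = 0.125) or medial replicate 1 (0.24, edgeR adjusted p = 0.116), nor with DESeq2 (0.33, adjusted p = 0.0525). The authors' deposited value for hoxa9.L was also 0.33 (DESeq2 adjusted p = 0.0497), just on the other side of the threshold. hoxa9.S had 0.18 (95% interval -0.06 to 0.42), hoxa10.L -0.01 (95% interval -0.24 to 0.23) and hoxa10.S -0.22 (95% interval -0.46 to 0.02), with edgeR adjusted p = 0.269, 0.975 and 0.176.

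Over all 8 copies, 8 were called higher distal over proximal by edgeR, where 13.6% of all genes tested were called higher and 29.5% were called in either direction. Distal over medial, 3 were called higher and 5 were not called, where 12.1% of genes tested were called higher and 12.9% lower, 25% in all. Medial over proximal, 6 were called higher and 2 were not called, where 2.73% of genes tested were called higher and 4.88% lower, 7.6% in all. The members' median log2 fold change was 1.47, 0.09 and 1.03 in these comparisons, beside -0.003, 0.01 and -0.003 over all genes tested. Because the 8 were taken from a table of genes that the authors had called in at least 1 comparison on these libraries, such counts describe the genes and are not independent evidence that they vary. The authors' deposited table lists all 8 between the outermost segments, 6 across the inner boundary, and 3 across the outer one, namely hoxa9.L, hoxa13.L and hoxa13.S.

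**Figure D2:**
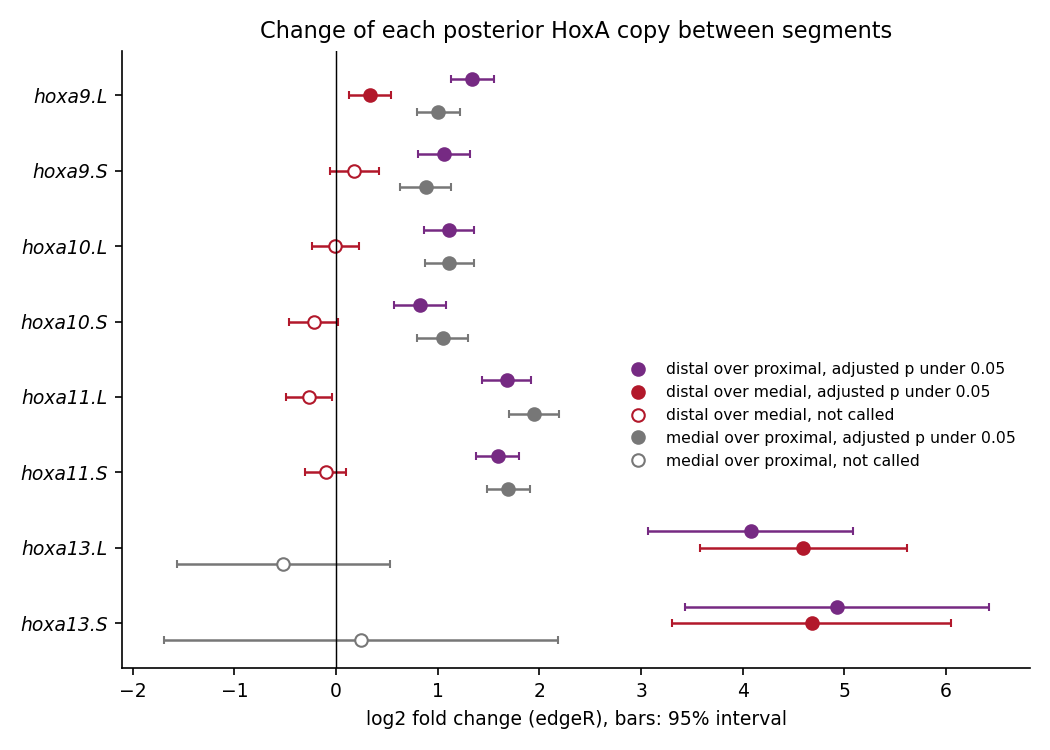
Log2 fold changes of the 8 copies for distal over proximal, distal over medial and medial over proximal, with bars for the 95% interval from edgeR and filled points for genes with an adjusted p under 0.05. The hoxa13 copies stand near 4 to 5 in both distal comparisons and near 0 for medial over proximal, while the hoxa11 copies stand near 0 for distal over medial and at 1.94 and 1.69 for medial over proximal.

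Whether a gene's change across the outer boundary (distal over medial) differed from that across the inner one (medial over proximal) was tested as outer minus inner log2 fold change. The difference keeps its sign, so a gene that falls distally at the outer boundary also has a negative value. For example, gdf5.L had -5.96 at the outer and -0.15 at the inner boundary. Among all genes tested, 9.73% were called by edgeR, 3.45% with a positive and 6.29% with a negative difference. Of the 8 copies, hoxa13.L was called with a positive difference, 6 with a negative one, and hoxa13.S was not called. In each of these 6 copies the inner step was also the larger in size. The difference was 5.11 for hoxa13.L (SE 0.70, edgeR adjusted p = 0.0163) and 4.44 for hoxa13.S (SE 1.12, edgeR adjusted p = 0.0962). It was -2.21 for hoxa11.L (SE 0.18, edgeR adjusted p = 1.36e-05) and -1.79 for hoxa11.S (SE 0.15, edgeR adjusted p = 2.26e-05), which placed hoxa11 and hoxa13 on opposite sides. hoxa10.L and hoxa10.S had -1.12 and -1.27 (edgeR adjusted p = 0.00215 and 0.00120), and hoxa9.L and hoxa9.S had -0.67 and -0.70 (edgeR adjusted p = 0.0220 and 0.0414).

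The hoxa10 and hoxa11 results of this test kept their side of the threshold without any single library. The call for hoxa13.L ended without proximal replicate 1 (4.99, edgeR adjusted p = 0.0764) or proximal replicate 2 (5.26, edgeR adjusted p = 0.0755), and with no filter on low counts (5.12, edgeR adjusted p = 0.0614). For hoxa13.S the difference was called without medial replicate 1 (6.82, edgeR adjusted p = 2.45e-05) and without medial replicate 2 (3.12, edgeR adjusted p = 0.00209), and by DESeq2 (4.66, adjusted p = 0.0166) and limma-voom (4.86, adjusted p = 0.0365). The calls for hoxa9.L and hoxa9.S ended without distal replicate 1 (-0.69 and -0.76), distal replicate 2 (-0.68 and -0.66), medial replicate 2 (-0.48 and -0.57) or proximal replicate 2 (-0.67 and -0.56), at edgeR adjusted p of 0.0537 to 0.166, and that for hoxa9.S also ended with DESeq2 (-0.72, adjusted p = 0.0519).

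Levels of different genes can be compared only per length, as CPM per kilobase (RPKM, computed here from the counts and the table's gene lengths). In the distal segment hoxa13.L averaged 92.0 ± 2.94 RPKM and hoxa13.S 58.1 ± 1.67 RPKM (SD, n = 2), above hoxa11.L at 38.9 ± 2.21, hoxa9.L at 33.5 ± 0.625, hoxa9.S at 32.7 ± 2.07, hoxa10.L at 26.4 ± 1.09, hoxa10.S at 24.8 ± 1.23 and hoxa11.S at 17.6 ± 0.536 RPKM. The pools of hoxa9.L and hoxa9.S overlapped, as did those of hoxa10.L and hoxa10.S, and the other neighbours in this order did not. In the medial segment hoxa11.L was highest, at 46.9 ± 3.73 RPKM, and hoxa13.L and hoxa13.S lowest, at 3.81 ± 2.09 and 2.27 ± 1.82 RPKM (SD, n = 2), with overlapping pools for the last pair. The copies of hoxa9 and hoxa10 lay between 26.5 and 28.9 RPKM there, with overlapping pools, and hoxa11.S at 18.9 ± 1.19 RPKM. In the proximal segment the order was hoxa9.S at 15.9 ± 2.38, hoxa10.S at 14.2 ± 2.00, hoxa9.L at 13.3 ± 0.365, hoxa11.L at 12.3 ± 1.43 and hoxa10.L at 12.3 ± 0.694 RPKM, whose pools overlapped from neighbour to neighbour. hoxa11.S followed at 5.89 ± 0.238, hoxa13.L at 5.58 ± 0.817 and hoxa13.S at 2.31 ± 1.25 RPKM (SD, n = 2), the hoxa11.S and hoxa13.L pools again overlapping. RPKM rests on the deposited gene models, and the short hoxa13.S model bears on its place in these orders.

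With L and S added, hoxa13 made up 46.1% and 46.6% of the summed RPKM of the 4 genes in the distal pools, against 5.06% and 1.74% in the medial pools and 10.6% and 8.53% in the proximal pools. hoxa11 made up 17.6% and 17.3% in distal, 35.7% and 36.3% in medial and 21.96% and 22.6% in proximal pools. By share, the distal segment was thus hoxa13-rich, the medial segment hoxa11-rich, and in the proximal segment hoxa9 led with 35.3% and 36.2%. A share also falls when another gene of the sum rises. The hoxa11 level itself averaged 56.6 RPKM in distal and 65.8 RPKM in medial pools, so its lower distal share is no measure of a fall in hoxa11. The ratio of hoxa13 to hoxa11 RPKM was 2.62 and 2.69 in distal pools, 0.142 and 0.0478 in medial pools and 0.483 and 0.377 in proximal pools, without overlap between segments. The ratio was lowest in the medial segment. hoxa11 is its denominator, and averaged 65.8 RPKM in medial against 18.2 RPKM in proximal pools, with both copies called between these segments. hoxa13 averaged 6.08 and 7.88 RPKM there, with neither copy called. Between the distal and the medial segment neither hoxa11 copy was called.

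**Figure D3:**
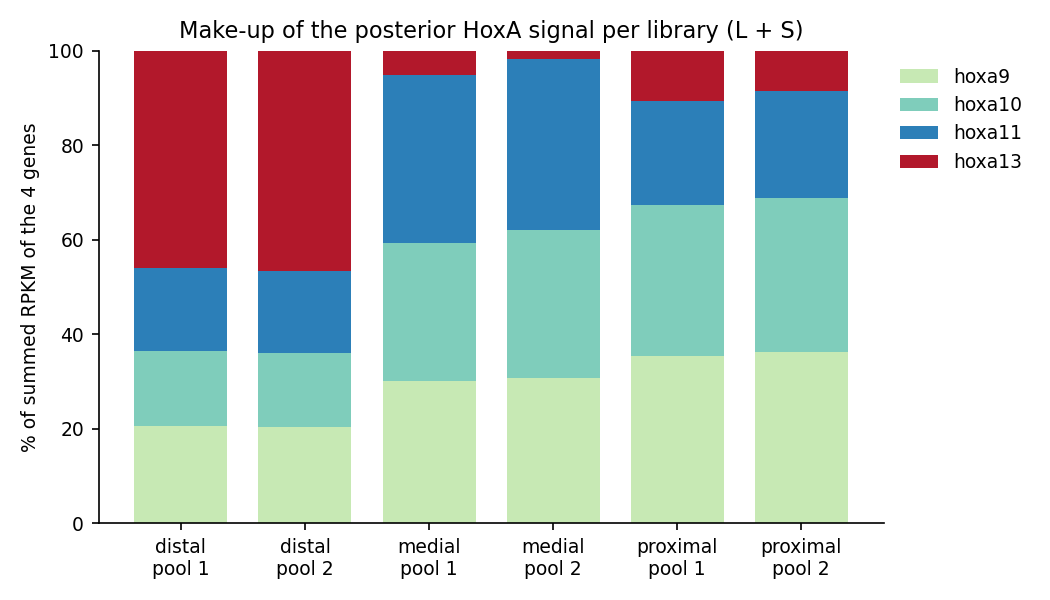
Share of hoxa9, hoxa10, hoxa11 and hoxa13 (L and S added) as a percentage of their summed RPKM, as stacked bars for each of the 6 libraries. hoxa13 takes 46.1% and 46.6% in distal pools and at most 10.6% elsewhere, and hoxa11 takes 35.7% and 36.3% in medial pools.

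The L and the S copy of hoxa9, hoxa10 and hoxa11 followed a similar course along the limb, and both hoxa13 copies were high in the distal segment alone. Medial over proximal, hoxa13.L had -0.52 and hoxa13.S 0.24, with neither called. Differences in slope were tested over 1189 L and S pairs. Both copies of each pair carry a name because the authors had called them in some comparison. Shares of pairs called thus do not hold for L and S pairs in general. Of the hoxa13 fragments, 80.0% and 80.0% were from L in distal pools, 79.0% and 85.7% in medial pools, and 82.95% (95% Wilson interval 76.7 to 87.8) and 89.9% (86.7 to 92.4) in proximal pools. Such intervals and the count floor cover counting error only. Fragment shares do not allow for the different lengths of the L and S models. Per length, L averaged 61.3% of hoxa13 RPKM in distal, 65.1% in medial and 71.9% in proximal pools. The distal over proximal log2 fold change of hoxa13.L was 0.83 below that of hoxa13.S, written as -0.83 (SE 0.23, edgeR adjusted p = 0.00875), where 48.9% of these pairs were called. Without proximal replicate 2 the difference was -0.28 and no longer called (edgeR adjusted p = 0.519), so it rested on that library.

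For hoxa9 and hoxa10 the L copy rose more steeply distal over proximal, by 0.25 (edgeR adjusted p = 0.0380) and 0.26 (edgeR adjusted p = 0.0253) on the log2 scale, while hoxa11 had 0.11 (edgeR adjusted p = 0.305). Both calls ended without distal replicate 1, distal replicate 2 or proximal replicate 1, at 0.16 to 0.32 for hoxa9 and 0.20 to 0.28 for hoxa10. Distal over medial, hoxa10 alone was called among the 4, at 0.22 (edgeR adjusted p = 0.0358, 44% of pairs called), and that call ended without distal replicate 1 (0.23), distal replicate 2 (0.21) or medial replicate 1 (0.17). Medial over proximal, hoxa11 alone was called, at 0.27 (edgeR adjusted p = 0.0229, 31.7% of pairs called), and that call ended without either distal replicate (0.26 each), medial replicate 2 (0.26) or proximal replicate 2 (0.17). hoxa13 had -0.72 there (edgeR adjusted p = 0.0734), and was called without medial replicate 2 (-0.94) or proximal replicate 1 (-1.04). The share of L fragments for hoxa11 was 55.2% to 56.1% in distal, 58.1% to 58.7% in medial and 52.9% to 55.6% in proximal pools, a difference of a few percentage points. Per length, L averaged 68.8% of hoxa11 RPKM in distal, 71.2% in medial and 67.6% in proximal pools. Of the 4 genes, 3 were called distal over proximal, 1 distal over medial and 1 medial over proximal.

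The rest of the HoxA cluster was searched between hoxa3 and evx1, the even-skipped related gene that flanks the posterior end. Gene names come from the authors' table of called genes. Every named copy of this and the later lists had thus been called by the authors in some comparison. Counts of called copies in these lists describe them and are not independent evidence, and the shares over all genes tested are not a like background. Of the list of other HoxA genes, 3 of 8 symbols were named, and all 6 of their copies were called higher distal over proximal and also distal over medial, beside 13.6% and 12.1% of all genes tested. A gene ID provisionally named hoxa6 on chromosome 6L had 1.66 distal over proximal and 0.89 distal over medial, both called by edgeR. Among all gene IDs tested in the interval, members included, 12 of 15 on 6L and 8 of 13 on 6S were called higher distal over proximal, and 1 on each was called lower. hoxa7.L averaged 21.9 ± 2.36 CPM in distal, 6.88 ± 1.06 CPM in medial and 4.31 ± 0.0428 CPM in proximal pools (SD, n = 2), with log2 fold changes of 1.66 distal over medial (edgeR adjusted p = 9.74e-06) and 0.68 medial over proximal (edgeR adjusted p = 0.0293). hoxa7.S had 0.62 distal over medial (edgeR adjusted p = 0.0156) and 0.50 medial over proximal (edgeR adjusted p = 0.125). hoxa3.L and hoxa3.S had 1.00 and 0.95 distal over medial, both called by edgeR, although hoxa3 is an anterior Hox gene. The deposited hoxa3.S model spans the whole of hoxa7.S, so fragments that overlapped exons of both were left uncounted, and their values are uncertain. hoxa3 and hoxa7 thus rose at the outer boundary, where hoxa9.L was called as well but hoxa10 and hoxa11 were not. Both hoxa3 copies also rose at the inner boundary, as did hoxa7.L. Medial over proximal, hoxa3.L had 0.62 and hoxa3.S 0.36 (edgeR adjusted p = 0.00457 and 0.0376).

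evx1 had the profile of hoxa13. evx1.L stood at 29.7 and 29.0 CPM in distal, 1.25 and 0.181 CPM in medial and 2.83 and 1.32 CPM in proximal pools, and evx1.S at 30.6 and 31.8 CPM in distal, 1.87 and 0.690 CPM in medial and 2.17 and 0.672 CPM in proximal pools. Distal over medial the log2 fold changes were 5.36 (SE 0.56) and 4.60 (SE 0.46), and distal over proximal 4.06 (SE 0.53) and 4.85 (SE 0.51), called by edgeR at adjusted p of 0.00389 or lower. Both evx1 copies therefore shared the steep outer step with the hoxa13 copies.

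A pair of transcripts in the cluster that carry only placeholder names was chosen after their values were seen. Those names come from the authors' table, so the authors had called both in at least 1 comparison. Xelaev18030999m (gene23885, plus strand, chromosome 6L, 39682925 to 39703965) lies between hoxa13.L and evx1.L, and had 143 and 135 CPM in distal, 7.52 and 0.327 CPM in medial and 3.40 and 0.112 CPM in proximal pools. Its distal levels were well above those of all other libraries, yet the pools of the medial and proximal segments differed so much (23.0 and 30.4 times) that edgeR called neither the distal over medial value of 5.15 (adjusted p = 0.0858) nor the distal over proximal value of 7.18 (adjusted p = 0.0637). Xelaev18033080m (gene23155, minus strand, chromosome 6S, 33776770 to 33777757) lies between hoxa11.S and hoxa13.S. It had 12.8 and 12.2 CPM in distal, 2.201 and 1.81 CPM in medial and 1.98 and 1.93 CPM in proximal pools, and its distal over medial log2 fold change of 2.64 (SE 0.18) was called by edgeR. Its outer step lay between those of the named genes on either side, -0.10 for hoxa11.S and 4.68 for hoxa13.S. The unnamed gene32249, which lies between hoxa11.S and Xelaev18033080m, had 0.46 and was not called by edgeR.

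**Figure D4:**
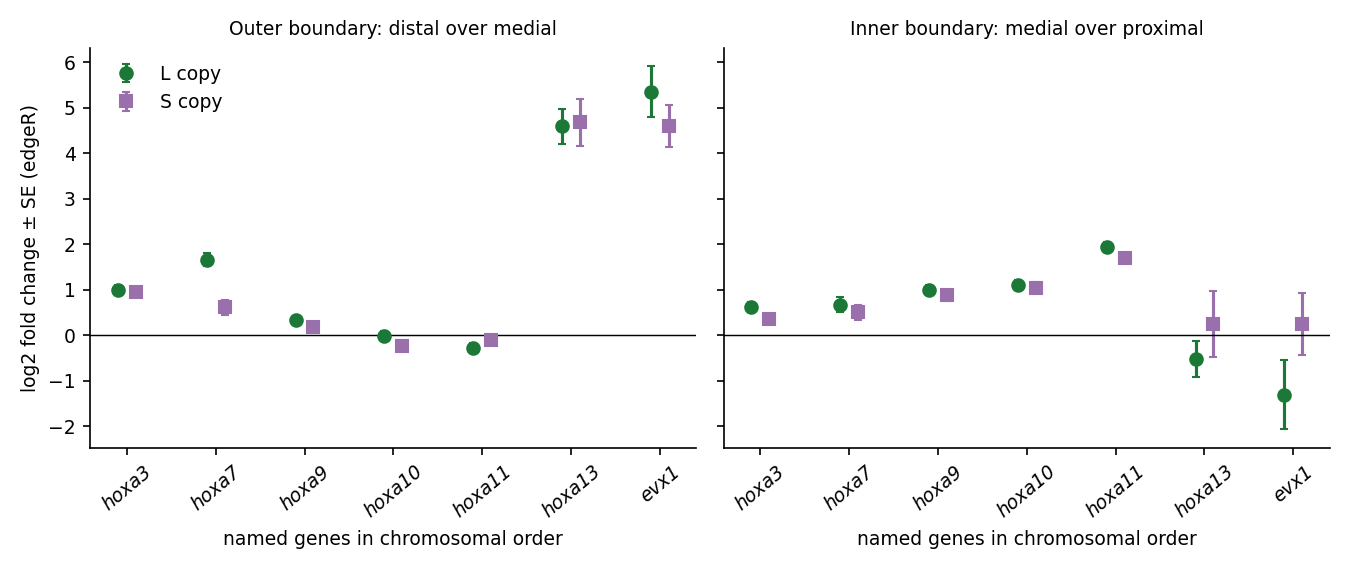
Log2 fold changes (edgeR, bars ± SE) of the named genes from hoxa3 to evx1 in chromosomal order, with L and S copies marked apart, for distal over medial on the left and medial over proximal on the right. The outer step is 4.59 and 4.68 at hoxa13 and 5.36 and 4.60 at evx1, against -0.27 and -0.10 at hoxa11, whose inner step is 1.94 and 1.69.

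The low levels of hoxa13 in the medial and proximal segments differed between pools. Other distal genes differed with them, though some hardly did so between the medial pools. As a percentage of the distal mean, hoxa13.L stood at 5.75% and 2.53% in medial pools 1 and 2 and at 6.69% and 5.43% in proximal pools 1 and 2, and hoxa13.S at 6.12% and 1.69% and at 5.50% and 2.44%. evx1.S stood at 5.99% and 2.21% in medial and 6.96% and 2.15% in proximal pools. Of all genes tested, 8 were called in both distal comparisons with log2 fold changes of at least 4 and had at least 10 CPM in the distal segment, both hoxa13 copies, for which the pools were looked at, among them. All 8 were higher in medial pool 1 than in pool 2 (median ratio 3.43, with 0.1 CPM added) and all 8 in proximal pool 1 (median ratio 2.11). Over all genes tested, 52.4% were higher in medial pool 1 and 49.7% in proximal pool 1. Some other distal genes hardly differed between the medial pools: hoxd13.L was 1.19 times and hoxd13.S 1.27 times as high in medial pool 1 as in pool 2, and sall3.L stood at 26.9 and 26.7 CPM. sall1.L did differ there, at 15.8 and 8.17 CPM. Between the proximal pools, hoxd13.L was 2.52 times and hoxd13.S 3.79 times as high in pool 1 as in pool 2, and sall3.L stood at 8.60 and 3.78 CPM. The reason for the difference between pools was not tested. Without medial replicate 1 and proximal replicate 1 together, hoxa13.L had log2 fold changes of 5.30 distal over medial, 4.20 distal over proximal and -1.10 medial over proximal, and hoxa13.S 5.88, 5.35 and -0.53. The pools left out held the higher hoxa13 level of their segment, so larger distal over medial and distal over proximal values follow from that choice. They are no test of the outer step.

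**Figure D5:**
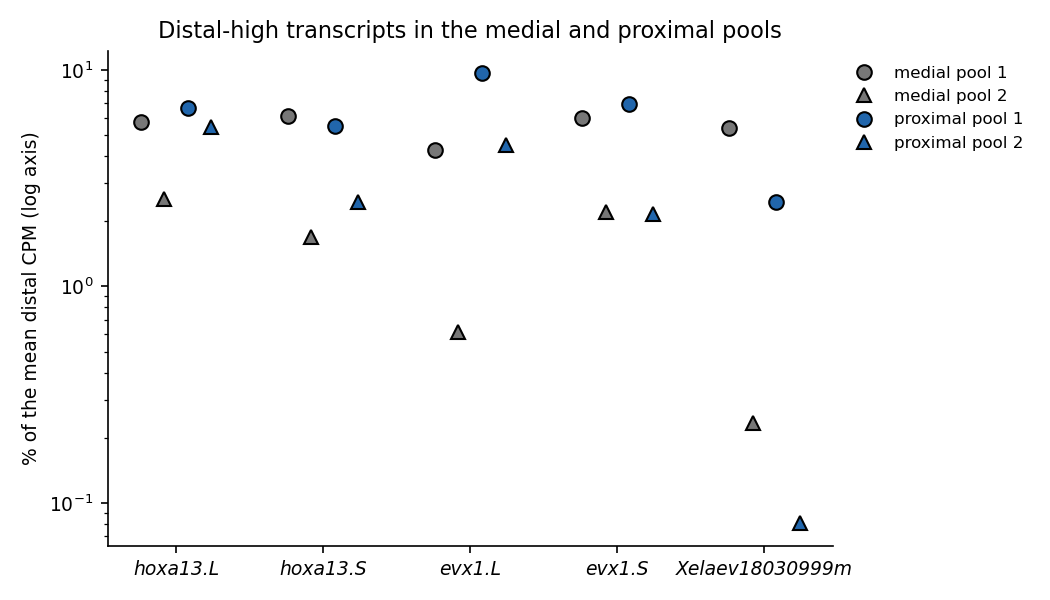
Level of the hoxa13 and evx1 copies and of Xelaev18030999m in each medial and proximal library as a percentage of the mean distal CPM (log axis), with circles for pool 1 and triangles for pool 2. Pool 1 is the higher pool in both segments for every transcript drawn, at 5.75% against 2.53% for hoxa13.L in the medial segment and 6.12% against 1.69% for hoxa13.S.

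Genes with the most similar profile over the 6 libraries were ranked by the root mean square difference of log2 CPM after centring, among 5390 named genes. All of these had been called by the authors in some comparison, so nearest means nearest among them. Gene IDs without a name or with only a placeholder name were not ranked. For hoxa11.L and hoxa11.S the nearest gene was the other copy, at 0.11, followed by sall4.S, a zinc finger gene of limb and stem cells, at 0.14 and 0.12. fzd8.L, a Wnt receptor, was at 0.13 from hoxa11.S. For hoxa13.L the nearest were tfap2b.L and tfap2b.S, transcription factor AP-2 beta genes, at 0.25 and 0.30, and hoxa13.S was the 5th at 0.40. For hoxa13.S the nearest was evx1.S at 0.20, followed by tfap2b.L at 0.31 and hoxa13.L at 0.40. tfap2b.L averaged 179 ± 1.83 CPM in distal, 8.12 ± 6.46 CPM in medial and 11.6 ± 4.82 CPM in proximal pools (SD, n = 2). Only its profile, not its level, is compared with hoxa13.L, as CPM does not allow for gene length.

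The nearest gene to hoxa9.L was gli1.L, a transcription factor and target of hedgehog signalling, at 0.06. It averaged 30.8 ± 0.0536 CPM in distal, 24.5 ± 0.0312 CPM in medial and 12.7 ± 0.445 CPM in proximal pools (SD, n = 2). hoxa9.S was nearest to p2ry11.L at 0.06 and kctd15.L at 0.07, hoxa10.L to mast4.S and hoxa9.S at 0.12 each, and hoxa10.S to igfbp2.L, which encodes an insulin-like growth factor binding protein, at 0.08. The remaining named neighbours lay at up to 0.13 for the hoxa9 and hoxa10 copies, 0.22 for hoxa11 and 0.51 for hoxa13. The hoxa9 and hoxa10 copies were each nearest to a gene of another family, unlike hoxa11.

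The HoxD genes act beside HoxA in vertebrate limbs, and 7 copies of 4 of the 5 genes listed (hoxd9 to hoxd13) were named. Distal over proximal 5 were called higher and 1 lower, beside 13.6% and 15.9% of all genes tested, at a median log2 fold change of 2.74. hoxd13.L averaged 128 ± 14.4 CPM in distal, 11.2 ± 1.35 CPM in medial and 2.90 ± 1.77 CPM in proximal pools (SD, n = 2), and had log2 fold changes of 3.52 distal over medial and 2.24 medial over proximal, both called by edgeR (adjusted p = 2.85e-04 and 0.0159). hoxd13.S was called distal over medial at 3.42 (edgeR adjusted p = 0.0107) but not medial over proximal, at 1.69 (edgeR adjusted p = 0.267). hoxd13.L thus rose at both boundaries and its S copy at the outer one, and their difference from hoxa13 was not tested. hoxd11.L averaged 20.6 ± 0.251 CPM in distal, 7.66 ± 0.0582 CPM in medial and 1.28 ± 0.0638 CPM in proximal pools (SD, n = 2), and was called higher at both boundaries, at 1.43 and 2.60, where hoxa11.L was called at the inner one alone. hoxd9.S was lower distally, at -0.70 (edgeR adjusted p = 0.00130), and hoxd9.L had 0.16 (edgeR adjusted p = 0.375), against 1.34 and 1.06 for hoxa9.L and hoxa9.S.

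TALE homeodomain proteins (Meis, Pbx and Pknox) bind DNA with Hox proteins, and Meis marks the proximal limb in mouse and chick. Of 11 copies named, 9 were called lower and 2 higher distal over proximal, where 15.9% of all genes tested were called lower. meis1.S and meis3.S had log2 fold changes of -3.24 and -3.31, and meis2.S, at or below the floor of 3 counts in both distal pools so that no fold is given, averaged 26.2 ± 5.76 CPM in medial and 92.0 ± 6.32 CPM in proximal pools (SD, n = 2). pknox2.L and pknox2.S were the 2 that rose, at 4.37 and 4.78, and medial over proximal as well, at 2.12 and 2.15. Meis copies were thus lowest where hoxa13 was highest.

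Signals known from vertebrate limbs to act on distal HoxA genes were mostly higher distally: 11 of 12 copies were called higher and 1 lower distal over proximal, beside 13.6% and 15.9% of all genes tested. All 12 carry names because the authors had called them in some comparison, so being called here was largely fixed beforehand. The largest were fgf8.S and fgf8.L, fibroblast growth factors of the apical ridge, at 4.81 and 4.34, and shh.L, the hedgehog ligand of the posterior margin, at 3.52. aldh1a2.L, which makes retinoic acid, was called lower at -2.70, with 15.7 ± 0.701 CPM in distal, 8.09 ± 1.17 CPM in medial and 102 ± 5.37 CPM in proximal pools (SD, n = 2), while its S copy aldh1a2.S was called higher at 0.70 (edgeR adjusted p = 0.00837). fgf8 is itself in the ectoderm marker list, whose sum was higher in the distal libraries.

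Genes bound or changed in mouse limbs or genitalia lacking Hoxa13 were counted in the same way, and 10 of 14 copies were called higher, 3 lower and 1 not called distal over proximal, beside 13.6% higher and 15.9% lower over all genes tested. sall1.L, sall3.S and sall3.L, zinc finger genes of the distal limb, had log2 fold changes of 6.29, 6.17 and 4.87, and aldh1a2.L, epha7.S and epha7.L had -2.70, -1.67 and -0.86. Of genes tied to Hoxa11 in the mouse lower limb and cartilage, 9 of 9 copies were called lower distal over proximal and 8 lower distal over medial, while medial over proximal 2 were called lower and 7 were not called. Over all genes tested, 15.9%, 12.9% and 4.88% were called lower in these comparisons. gdf5.L, a joint growth factor, had -6.12 distal over proximal and -5.96 distal over medial, and shox2.S, a proximal limb transcription factor, -4.97 and -4.07. Most of this list was thus called at the outer boundary, at which neither hoxa11 copy was, with runx2.L the exception (-0.35, edgeR adjusted p = 0.329), and the summed cartilage markers given above were also lower in distal libraries.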

How the data were processed

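Fragment counts per gene were deposited by the authors, who per the file headers ran featureCounts 2.0.1 on read pairs with default settings, so without strand. Gene lengths in base pairs are other values of that deposited table. The submitters' processing notes name bcl2fastq, Trimmomatic 0.39, HISAT2 2.2.1, SAMtools 1.10 and DESeq2 1.30.1, and the genome build is not given in the sources used here. The deposited table of calls by the authors gives, per the file headers, a mean normalized signal, a log2 fold change with its error and an adjusted p-value, all under 0.05. Its log2 fold changes are positive for the more proximal segment and were turned round here. It supplied the gene names, so gene IDs that it does not list stayed unnamed here.

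Counts were filtered with filterByExpr (minimum count 10, minimum total 15), normalised by TMM and fitted with edgeR 4.0.16 under R 4.3.3 (robust quasi-likelihood test, segment as the sole factor, 3 residual degrees of freedom, common biological coefficient of variation 0.0948). P-values were adjusted by Benjamini-Hochberg over all 27007 genes tested, and called means an adjusted p under 0.05. The L and S copies were compared with a copy by segment interaction over 1189 pairs. CPM and RPKM were computed here with the TMM factors, and log2 CPM used a prior count of 2. The fits were tested on simulated data. Members, lists and tests were chosen with earlier results of these data known. The rule names the 8 members, for each the 5 most similar genes, and in each list up to 3 genes a direction by size of the distal over proximal change. By Entrez number 8 members matched RefSeq (Xenopus_laevis_v10.1), 5 of them under the same symbol; RefSeq gives placeholder names to hoxa10.L and hoxa11.S and calls the Entrez number of hoxa11.L hoxa11.S, so the L and S labels of hoxa11 rest on the deposited names and chromosomes. Alternatives were DESeq2 1.42.0, limma 3.58.1 (voom), RLE size factors, other filters, blood genes left out, only the 4 libraries compared, a replicate block, and leaving out each replicate. Leaving out medial replicate 1 and proximal replicate 1 together was chosen after seeing the data.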

Additional observations from a re-analysis of the deposited data

How the results depend on the processing

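Under the alternatives, 440 values of the members' log2 fold changes and step differences kept direction and side of the threshold, 16 lost and 10 gained a call, and 6 changed direction. The direction changes were hoxa10.L distal over medial at 0.00028 with limma-voom and hoxa13.S medial over proximal at -0.53 without medial replicate 1 and proximal replicate 1 together, with leave-one-out ranges of -0.14 to 0.14 for hoxa10.L and -0.94 to 0.91 for hoxa13.S. Of the copy differences, those of hoxa13 distal over medial (-0.58 to 0.092) and hoxa10 medial over proximal (-0.017 to 0.16) changed direction when a replicate was left out. Leaving out a replicate, or medial replicate 1 and proximal replicate 1 together, gave 4625 to 11275 genes called distal over proximal (7975 with all libraries), 3205 to 9295 distal over medial (6753), 975 to 3482 medial over proximal (2053), 1540 to 4530 for the step difference (2629) and 223 to 380 pairs for the copy difference medial over proximal (377). Members called for the step difference then numbered 4 to 8. Without medial replicate 1 and proximal replicate 1 together, which gave the highest of these counts over genes, 5 members were called distal over medial, where hoxa10.S (-0.30) and hoxa11.L (-0.34) were added; that spread rests on the distal pools, the lone medial and proximal libraries being assumed to vary like them. The replicate block gave 8812, 7864, 2629 and 3515 calls in the 4 comparisons and changed no member's call; deviations of pools with the same number correlated at 0.03, 0.05 and 0.20, so the numbers were not taken to pair the libraries. The causes of these changes were not tested. With 2 pools a segment and hoxa13.S down to 24 fragments in a medial pool, depth and spread limit the medial over proximal comparison of hoxa13.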
